A study of Homo sapiens with 32 samples.

Results

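Translation factors and cytosolic aminoacyl-tRNA synthetases were followed through the androgen response of LNCaP cells, an established human prostate cancer line that carries an androgen receptor and grows in response to androgen. All cells were first kept for 72 hours in steroid-deplete medium, which contained 10% charcoal-stripped serum. For the next 24 hours 10 nM R1881, a synthetic androgen, was present in 4 of the 8 samples and absent from the others. RNA was hybridised to Human Exon 1.0 ST arrays, and the gene-level values used here are log2 values made with RMA, a method that corrects background, normalises arrays to each other and summarises the probes of a transcript cluster, the array's unit for a gene. Members were all transcript clusters with 1 gene symbol that names an initiation factor of the eIF1 to eIF6 families, an elongation factor gene (EEF), the release factor ETF1, a cytoplasmic poly(A)-binding protein (PABPC) or a cytosolic tRNA synthetase. The eIF2 kinases were left out of the members. This rule found 59 of the 16309 clusters (13482 of which have 1 symbol), 42 of them counted as translation factors and 17 as tRNA synthetases. The 42 go by name. They include genes that regulate or modify the factors (EIF4EBP1, EIF4EBP2, EIF4ENIF1, EEF2K and 3 methyltransferases) and 2 pseudogenes. A further 15 clusters carry several symbols with a fitting name among them, and they were not counted. The labels do not say whether the 4 samples of a treatment came from separate cultures, so the p-values measure only the spread between these arrays.

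Translation of an mRNA begins when eIF2 brings the initiator tRNA to the small ribosomal subunit, eIF3 holds that complex together, and the eIF4 factors bind the cap of the mRNA and unwind its leader. The exchange factor eIF2B reloads eIF2 with GTP, and phosphorylation of eIF2 by stress kinases blocks this exchange. The synthetases charge each tRNA with its amino acid, and elongation factors then deliver the charged tRNA and move the ribosome. In prostate cancer cells this machinery is best known as a target of growth factor and nutrient signals through the kinase mTOR, and the transcription factor ATF4, made when eIF2 is phosphorylated, is a known inducer of many synthetase genes.

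The arrays carried the markers of prostate luminal cells. KLK3, KLK2, TMPRSS2 and HOXB13 lay between 8.66 and 12.2 on the log2 scale, while 3 leukocyte markers (2.26 to 5.01), 2 endothelial markers (3.53 to 5.03) and 3 stromal markers (2.90 to 6.58) lay lower. KLK3 was 1.82, KLK2 2.54 and TMPRSS2 2.57 higher on the log2 scale after R1881, and HOXB13 was lower (−0.44). The median of an array over all clusters was 6.33 to 6.40 in steroid-deplete medium and 6.22 to 6.31 after R1881, and the median of the 59 members was 8.44 to 8.70 and 8.21 to 8.57. One array of each treatment (replicate 1 in steroid-deplete medium and replicate 4 with R1881) had the highest scores on the second principal component, and the counts of members are therefore also given without this pair.

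The sequences before the transcription start sites were read from RefSeq promoters (GRCh38.p14, 250 bases before to 50 bases after each start), which were given for 45 of the 59 members and for 13 of the 18 that passed the test described below. The core TGATGNAA of the C/EBP-ATF response element, the site that ATF4 binds with a partner in amino acid response genes, was present on either strand in 8 of the 45 members (17.8%), against 4.46% of all 27305 genes with a promoter. Of these 8 members, 7 were among the 14 synthetases with a promoter. The other was EIF4E3, at the most downstream of its 3 annotated starts. The sequences are shown because these synthetases share a feature that the rule did not use, and the capitals mark the core as it reads on the strand of the gene.
TARS1 (chr5:33440951-33440984, plus strand): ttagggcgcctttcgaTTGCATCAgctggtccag
GARS1 (chr7:30594829-30594868, plus strand): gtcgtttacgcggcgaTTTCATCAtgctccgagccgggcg
IARS1 (chr9:92293687-92293726, minus strand): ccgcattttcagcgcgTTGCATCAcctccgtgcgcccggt
CARS1 (chr11:3057404-3057441, minus strand): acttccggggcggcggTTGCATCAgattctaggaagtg
MARS1 (chr12:57488048-57488087, plus strand): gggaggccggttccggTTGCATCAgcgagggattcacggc
AARS1 (chr16:70289670-70289709, minus strand): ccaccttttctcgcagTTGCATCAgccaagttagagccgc
NARS1 (chr18:57621815-57621838, minus strand): tcagatctacgctctcTGATGCAA
EIF4E3 (chr3:71729108-71729147, minus strand): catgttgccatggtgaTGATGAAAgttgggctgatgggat

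A start with C followed by 4 bases that are each C or T, the beginning of the terminal oligopyrimidine sequence by which mTOR controls the translation of ribosomal protein mRNAs, was found in 7 of the 45 members (15.6%) and in 5.14% of all genes. These 7 starts are shown with 10 bases before and 20 bases after the start site, and the capitals mark the run of pyrimidines from the start base on.
EIF2S3 (chrX:24054946-24054975, plus strand): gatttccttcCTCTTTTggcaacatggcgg
EIF2D (chr1:206612446-206612475, minus strand): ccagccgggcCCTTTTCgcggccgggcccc
EIF2A (chr3:150546777-150546806, plus strand): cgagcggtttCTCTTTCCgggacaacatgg
EIF3D (chr22:36529147-36529176, minus strand): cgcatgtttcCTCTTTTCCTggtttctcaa
EIF3K (chr19:38619178-38619207, plus strand): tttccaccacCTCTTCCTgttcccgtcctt
EIF3M (chr11:32583821-32583850, plus strand): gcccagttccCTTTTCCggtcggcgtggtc
QARS1 (chr3:49104738-49104767, minus strand): gcctaagtttCTTTTagtttccggtgtctc

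The hexamer AGAACA, to which the androgen receptor binds as a pair of inverted copies, was found on either strand in 6 of the 45 members (13.3%) and in 17.5% of all genes. The full palindrome, 2 such hexamers facing each other across 3 bases, was in 0 of the 45 members and in 1 of the 27305 genes. EIF4E3, the member with the largest change, is one of the 6, and the 250 bases before the most upstream of its 3 annotated start sites (chr3:71754774-71755023, minus strand) are shown with the hexamer in capitals.
EIF4E3: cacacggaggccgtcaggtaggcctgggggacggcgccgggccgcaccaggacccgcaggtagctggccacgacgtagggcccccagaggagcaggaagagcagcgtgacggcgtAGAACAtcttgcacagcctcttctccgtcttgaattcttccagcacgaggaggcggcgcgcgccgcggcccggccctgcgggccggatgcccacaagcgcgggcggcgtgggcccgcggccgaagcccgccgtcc

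The letters CCGGAAG, the core to which ETS transcription factors bind, were more common. They were present on either strand in 20 of the 45 members (44.4%), 9 of them synthetases, and in 12.2% of all genes. The E-box CACGTG, bound by MYC among others, was in 9 of the 45 members and in 8.77% of all genes. Of the 20 members with the ETS core, 1 rose past the threshold used below (WARS1) and 3 fell (EEFSEC, EIF4EBP2 and EIF5A2). The core is shown in capitals in the 250 bases before the upstream start site of WARS1 (chr14:100376328-100376577, minus strand). These motifs were chosen with the results in view and no test was made of them. A match of letters does not show that a factor binds, and no match says only that the letters are not in these windows.
WARS1: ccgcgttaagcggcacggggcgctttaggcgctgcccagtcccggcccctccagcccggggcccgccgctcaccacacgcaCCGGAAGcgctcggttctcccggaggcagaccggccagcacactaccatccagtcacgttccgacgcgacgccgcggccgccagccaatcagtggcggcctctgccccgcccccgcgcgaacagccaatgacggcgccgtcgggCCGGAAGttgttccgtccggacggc

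In the RMA values of all 8 arrays more members fell than rose after R1881, and no change reached 2-fold. With limma over all 16309 clusters and a Benjamini-Hochberg adjusted p under 0.005, 15 of the 59 members fell (25.4%) and 3 rose (5.08%), where 12.2% of all clusters fell and 6.44% rose. The members that fell were EIF4E3, EEFSEC, EEF1A2, EIF2S3, PABPC5, EIF4EBP2, EPRS1, LARS1, EIF4EBP1, EIF5A2, EIF4ENIF1, EIF3H, EIF3G, EIF2D and EIF3D. EIF2B4, EEF2K and WARS1 rose. With a limit of 2-fold added, 0 members rose and 0 fell, against 1.94% and 2.04% of all clusters. At an adjusted p under 0.05, 7 members rose (11.9%, all clusters 10.5%) and 20 fell (33.9%, all clusters 19.8%). The excess of members that fell over the share of all clusters depended on the test and on level. With the methods' t-test and Benjamini-Hochberg adjustment 1.69% of the members and 5.32% of all clusters fell, and with Storey's q-values 8.47% and 7.79%. In Iter-PLIER values 16.9% of the members and 13.3% of all clusters fell, and among clusters at or above the median level, which hold 53 of the members, 26.4% and 21.1%. The median log2 fold change in RMA values was −0.11 over the members and −0.003 over all clusters. All 4 R1881 arrays lay above all 4 steroid-deplete arrays for 7 members, where this held for 11.2% of all clusters, and below them for 17 members, where it held for 18.7%.

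The split between higher and lower depended on how the arrays were scaled. Subtraction of each array's median moved the median log2 fold change of all clusters to 0.098 and that of the members to −0.009, and it left 7 members higher and 7 lower (11.9% each). Over all clusters, 1533 were then higher (9.40%) and 1506 lower (9.23%), where the deposited values gave 1051 and 1986. The 7 members that were lower on both scales were EIF4E3, EEFSEC, EEF1A2, EIF2S3, PABPC5, EIF4EBP2 and EPRS1. The 3 members that rose on the deposited scale also rose on the centred scale, where TARS1, EIF4G1, EIF3I and EIF2B2 joined them. The other 8 falls (0.36 to 0.51 on the log2 scale as deposited) did not pass the threshold after centring. Without steroid-deplete replicate 1 and R1881 replicate 4 together, 3 members rose and 7 fell, the latter 11.9% of the members against 10.2% of all clusters. The number of members that fell was 9 (15.3%) without steroid-deplete replicate 2 or without steroid-deplete replicate 3, where 9.87% and 9.53% of all clusters fell. It was 8 (13.6%) without steroid-deplete replicate 4 or without R1881 replicate 1, where 8.97% and 10.2% of all clusters fell.

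**Figure D1:**
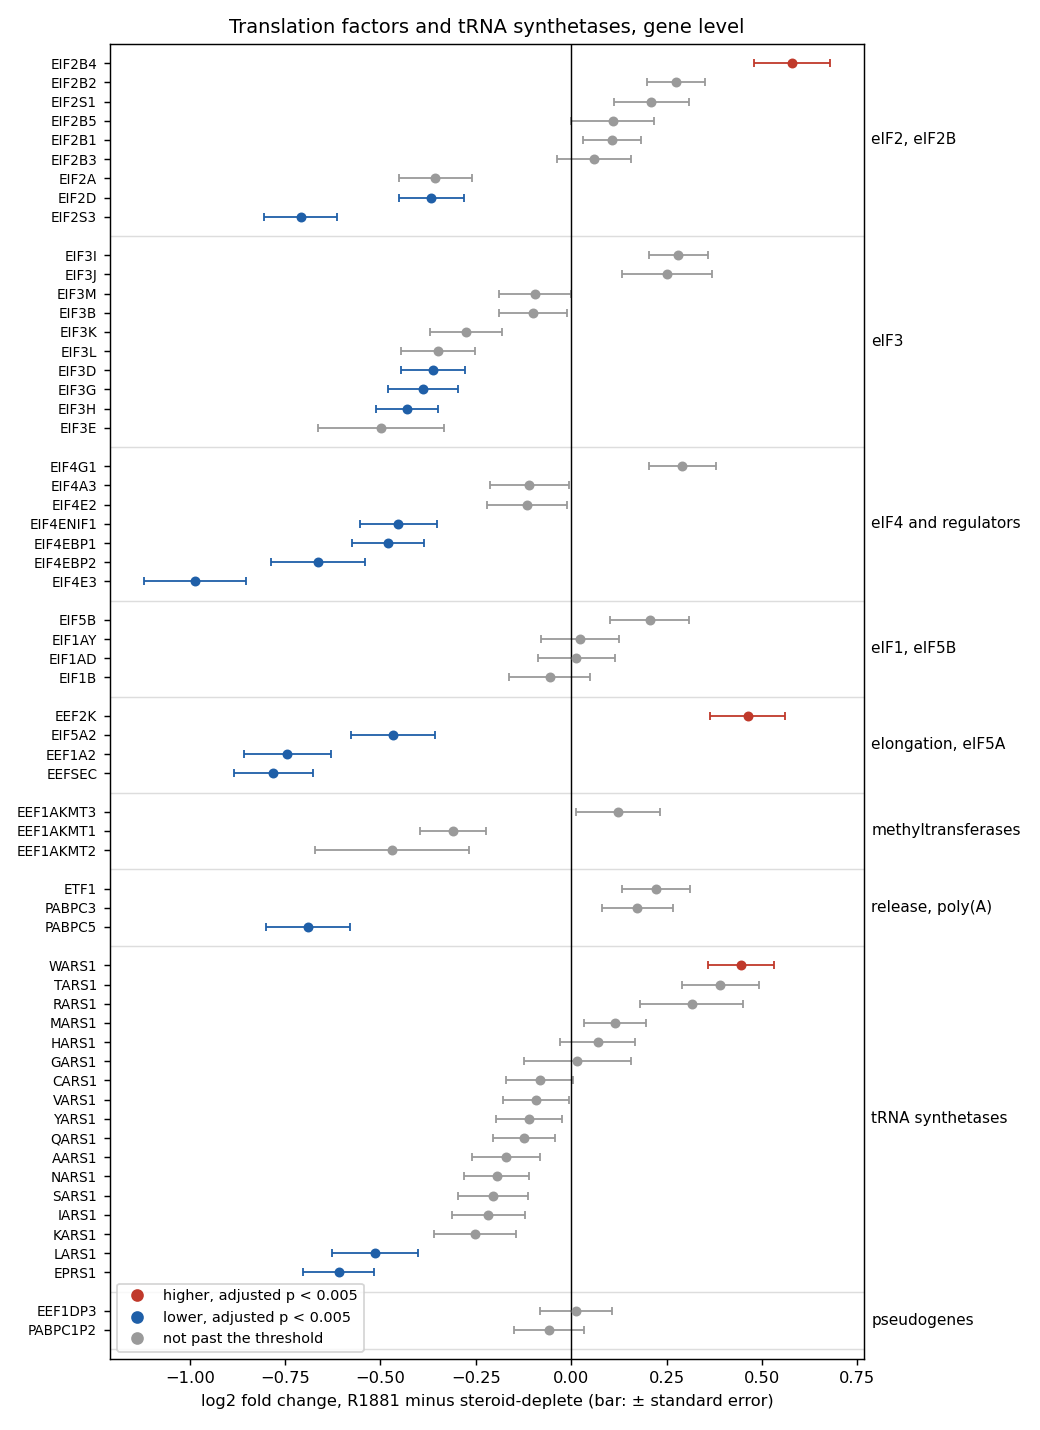
Log2 fold change (R1881 minus steroid-deplete, gene-level RMA) of the 59 members on the horizontal axis, grouped by role, with bars of ± 1 standard error (4 arrays per treatment). Red and blue mark the 3 members that rose and the 15 that fell at an adjusted p under 0.005, and grey marks the other members.

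**Figure D2:**
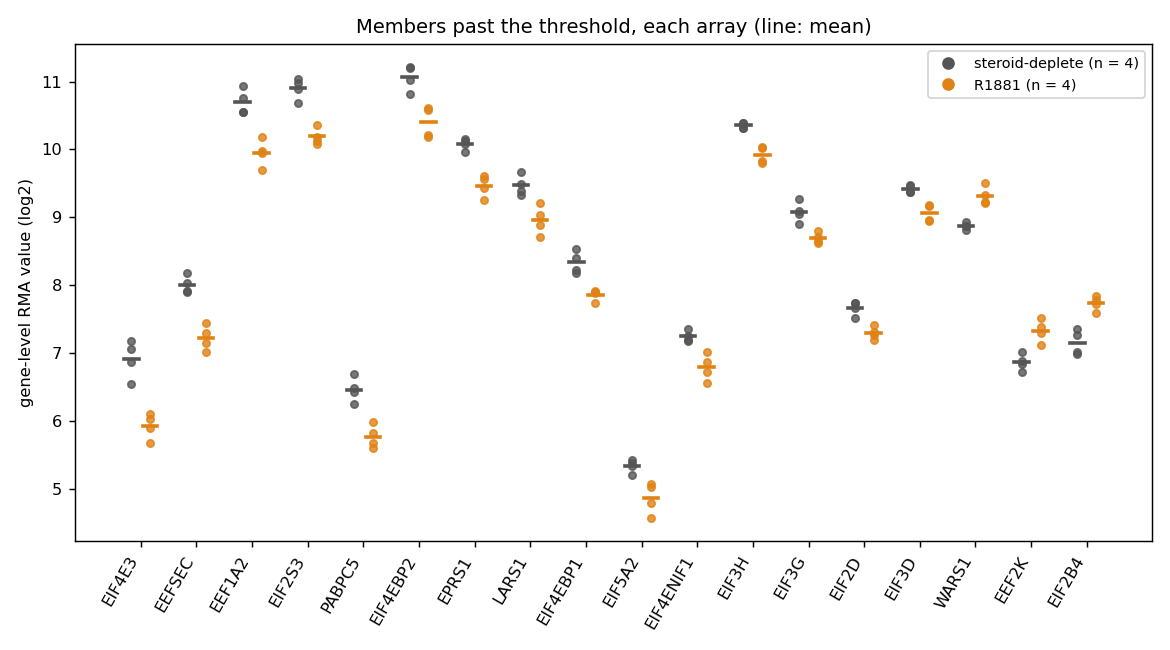
Gene-level RMA value (log2) of the 18 members past the threshold in each of the 4 steroid-deplete arrays (grey) and 4 R1881 arrays (orange), with the mean of each treatment as a line. The arrays of the treatments do not overlap in any of these 18 members.

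The eIF2 and eIF2B genes moved in different directions. EIF2S3 encodes the gamma subunit of eIF2, which binds GTP and the initiator tRNA. Its level was 11.03, 10.90, 10.69 and 10.98 in the steroid-deplete arrays and 10.19, 10.08, 10.37 and 10.13 after R1881. The treatments did not overlap, and the difference of −0.71 ± 0.10 (log2 fold change ± SE, n = 4 arrays per treatment) had an adjusted p of 6.9e-05. All 5 probe sets of EIF2S3 moved down, by 0.64 to 0.91 on the log2 scale, and the fall passed the threshold in every alternative fit that was run for named genes. EIF2S1, the alpha subunit that the stress kinases phosphorylate, stood at 9.64 ± 0.13 (SD, n = 4) without and 9.85 ± 0.15 with R1881, a difference of 0.21 ± 0.10 (adjusted p = 0.13) with overlapping arrays. EIF2S2, the beta subunit, was not analysed here.

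EIF2B4, the delta subunit of eIF2B, rose most among the members. It stood at 6.99, 7.02, 7.26 and 7.35 in steroid-deplete medium and at 7.85, 7.78, 7.60 and 7.73 after R1881, so that every R1881 array was above every steroid-deplete array. The log2 fold change was 0.58 ± 0.10 (adjusted p = 4.7e-04). The other eIF2B subunits had positive values too, with EIF2B2 (beta) at 0.27 ± 0.08 (adjusted p = 0.013), EIF2B5 (epsilon) at 0.11, EIF2B1 (alpha) at 0.11 and EIF2B3 (gamma) at 0.06, and of these EIF2B2 passed the threshold with centred arrays (0.38, adjusted p = 0.0018). EIF2D, which can place initiator tRNA and recycle ribosomes without eIF2, fell by 0.37 ± 0.09 (adjusted p = 0.0045), from 7.52, 7.67, 7.74 and 7.74 to 7.32, 7.41, 7.28 and 7.19. EIF2A, an alternative initiator tRNA factor, was at −0.36 ± 0.10 (adjusted p = 0.011).

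Of the 10 eIF3 subunits, 3 fell (30%) and 0 rose, where 12.2% of all clusters fell and 6.44% rose. The subunits were bright (7.30 or more in steroid-deplete medium), and among clusters at or above the median level 21.1% fell and 12.9% rose. EIF3H, which binds to the core of eIF3 through its MPN domain, fell by 0.43 ± 0.08 (adjusted p = 0.0011). Its 4 steroid-deplete arrays lay close together at 10.39, 10.39, 10.32 and 10.32, and the R1881 arrays lay below them at 9.83, 10.03, 10.02 and 9.81. EIF3G, an RNA-binding subunit, read 9.09, 9.05, 8.91 and 9.27 without R1881 and 8.65, 8.62, 8.80 and 8.71 with it (−0.39 ± 0.09, adjusted p = 0.0048). EIF3D, the subunit that can itself bind the cap of some mRNAs, read 9.38, 9.38, 9.48 and 9.47 and then 9.16, 8.96, 9.18 and 8.95 (−0.36 ± 0.08, adjusted p = 0.0046). The falls of EIF3G and EIF3D were near the threshold, and after the arrays were centred 0 eIF3 subunits fell and EIF3I rose. The log2 fold change was negative in 8 of the 10 subunits as deposited and in 6 after centring. It was negative in 9 after a new quantile normalisation and in 8 in Iter-PLIER values. With the new quantile normalisation EIF3H, EIF3D and EIF3L passed as lower and EIF3G did not. EIF3H, EIF3G and EIF3D did not pass in Iter-PLIER values. Outside the threshold, EIF3E had the most negative value (−0.50 ± 0.16, adjusted p = 0.035), with an SD of 0.37 over its R1881 arrays, and EIF3I the most positive (0.28 ± 0.08, adjusted p = 0.012), although EIF3I was at −0.02 after a new quantile normalisation.

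The eIF4 group held the largest change of all members. EIF4E3 encodes a member of the cap-binding eIF4E family. Its steroid-deplete arrays read 6.54, 6.87, 7.18 and 7.07, and its R1881 arrays read 6.11, 6.03, 5.90 and 5.68. The fall of 0.99 ± 0.13 on the log2 scale (adjusted p = 6.7e-05) was 1.98-fold, just short of 2-fold, and without steroid-deplete replicate 1 the value was −1.11. EIF4E2, its paralog that binds the cap without joining the scaffold protein eIF4G, read 7.29 ± 0.17 (SD) and 7.18 ± 0.15 (−0.12 ± 0.10, adjusted p = 0.46). EIF4E itself was not analysed here.

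Both measured binding proteins that hold eIF4E away from the scaffold fell as well. EIF4EBP2 stood at 11.20, 11.22, 10.82 and 11.02 in steroid-deplete medium and at 10.59, 10.18, 10.61 and 10.21 after R1881 (−0.66 ± 0.12, adjusted p = 8.9e-04). EIF4EBP1 stood at 8.23, 8.18, 8.41 and 8.54 and then at 7.90, 7.89, 7.74 and 7.92 (−0.48 ± 0.09, adjusted p = 0.0013). EIF4ENIF1, which carries eIF4E into the nucleus, read 7.18, 7.26, 7.19 and 7.36 without R1881 and 6.88, 6.72, 7.02 and 6.56 with it (−0.45 ± 0.10, adjusted p = 0.0034). For these 3 genes no R1881 array reached the lowest steroid-deplete array. EIF4G1, the scaffold, was the only member of the group with a positive value, at 9.92 ± 0.11 (SD) and 10.21 ± 0.11 (0.29 ± 0.09, adjusted p = 0.022), and it passed the threshold only with centred arrays, at 0.39 (adjusted p = 0.0023).

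All 4 members that act in elongation passed the threshold as deposited, 3 lower and 1 higher, although EIF5A2 passed in 4 and EEF2K in 7 of 15 alternative fits. EEFSEC delivers selenocysteine, the amino acid of selenoproteins, to the ribosome. Its level went from 7.92, 7.90, 8.18 and 8.04 to 7.45, 7.30, 7.15 and 7.02, a fall of 0.78 ± 0.10 (adjusted p = 5.7e-05) with no overlap. EEF1A2, an isoform of the factor that brings charged tRNA to the ribosome and is best known from muscle and neurons, went from 10.75, 10.55, 10.55 and 10.93 to 9.95, 9.70, 10.18 and 9.98 (−0.74 ± 0.11, adjusted p = 2.0e-04). Its near-identical paralog EEF1A1 was not analysed here, so how far their probes share signal was not tested.

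EIF5A2, an isoform of the hypusine-bearing factor eIF5A that helps the ribosome through difficult peptide bonds, was dim, at 5.34, 5.21, 5.42 and 5.38 in steroid-deplete medium and 4.57, 4.80, 5.04 and 5.07 after R1881 (−0.47 ± 0.11, adjusted p = 0.0049), and its fall did not pass with centred arrays (adjusted p = 0.022). EEF2K, the kinase that phosphorylates eEF2 and so slows elongation, moved the other way. It read 6.72, 6.89, 6.84 and 7.02 without and 7.30, 7.38, 7.51 and 7.12 with R1881, and the rise of 0.46 ± 0.10 had an adjusted p of 0.0026 in RMA values and of 0.039 in Iter-PLIER values. Every R1881 array of EEF2K was above every steroid-deplete array. The 3 methyltransferases of eEF1A did not pass the threshold (−0.47 to 0.12 on the log2 scale).

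Among the release and poly(A)-binding members, PABPC5, an X-linked poly(A)-binding protein gene, fell from 6.25, 6.49, 6.43 and 6.70 to 5.60, 5.82, 5.99 and 5.68 (−0.69 ± 0.11, adjusted p = 2.6e-04). ETF1, which recognises stop codons, was at 0.22 ± 0.09 (adjusted p = 0.078) and PABPC3 at 0.17 ± 0.09 (adjusted p = 0.19). The 4 members whose symbols begin with EIF1 or EIF5B lay between −0.06 and 0.21 and did not pass the threshold. The 2 pseudogene clusters, at −0.06 and 0.01, did not pass either.

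Of the 17 synthetases, 2 fell (11.8%) and 1 rose (5.88%), where 12.2% of all clusters fell and 6.44% rose. The synthetases were bright, at 7.62 to 10.9 in steroid-deplete medium, where the median of all clusters was 6.38. Among clusters at or above the median level 21.1% fell and 12.9% rose, and in that fit 2 synthetases rose. EPRS1, which charges both glutamate and proline and is part of the multi-synthetase complex, fell from 9.96, 10.12, 10.15 and 10.08 to 9.61, 9.57, 9.43 and 9.26 (−0.61 ± 0.09, adjusted p = 1.9e-04). LARS1, the leucine synthetase of the same complex, fell from 9.33, 9.50, 9.67 and 9.39 to 9.03, 9.21, 8.89 and 8.71 (−0.51 ± 0.11, adjusted p = 0.0029), and this fall did not pass the threshold with centred arrays (−0.41). WARS1, the tryptophan synthetase, rose from 8.88, 8.94, 8.82 and 8.88 to 9.33, 9.23, 9.51 and 9.21 (0.45 ± 0.09, adjusted p = 0.0012). The arrays of the treatments did not overlap in any of these 3 genes.

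TARS1, the threonine synthetase, was the member just outside the threshold, at 10.27, 10.48, 10.54 and 10.39 without and 10.85, 11.04, 10.72 and 10.64 with R1881 (0.39 ± 0.10, adjusted p = 0.0085), and EIF5A2 was the member just inside it. The other 13 synthetases lay between −0.25 and 0.32. Over the 17 genes the median was −0.11 as deposited and −0.01 after centring. The 7 synthetases with the C/EBP-ATF core before or near their start lay between −0.22 (IARS1) and 0.39 (TARS1). As deposited 0 of them passed the threshold, while TARS1 passed it with centred arrays (adjusted p = 0.0013). After a new quantile normalisation TARS1 did not pass (0.27, adjusted p = 0.036), and NARS1 passed as lower (−0.31, adjusted p = 0.0048). No such core was in the windows of WARS1 and EPRS1, and LARS1 had no promoter in the table. The 7 members with a pyrimidine start were all negative as deposited, from −0.71 (EIF2S3) to −0.09 (EIF3M), with EIF2S3, EIF2D and EIF3D past the threshold. After centring 6 of the 7 were negative and EIF2D and EIF3D no longer passed (adjusted p = 0.020 each), and among all 59 members 36 were negative as deposited. These 7 genes were grouped after their values were seen.

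Most single probe sets had the sign of their gene. All 59 members had probe sets with their symbol alone, 933 in total. Of those above the median level of all probe sets, 183 of the 202 that belong to the 15 members that fell had a negative log2 fold change, and 60 of the 65 that belong to the 3 members that rose had a positive value. Tested each alone over all probe sets, 3 member probe sets fell and 0 rose, where 1.21% of the 257184 probe sets with 1 symbol fell and 1.18% rose. The gene values are summarised from probes of the same arrays and the genes were taken for their direction, so the shared sign is a description and no separate support.

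All 3 of these probe sets belong to EIF4E3, and its probe sets did not move alike. Probe set 2682138 fell by 2.75 ± 0.43 (log2, SE) from 6.16, 7.31, 7.08 and 7.24 to 4.47, 5.06, 2.89 and 4.40 (adjusted p = 0.0046). Probe set 2682116 fell by 2.40 ± 0.28 (adjusted p = 7.6e-04) and 2682125 by 1.78 ± 0.22 (adjusted p = 9.2e-04). After R1881 the means of 2682138 (4.20) and 2682116 (3.51) were below the median level of all probe sets (4.65), so the size of these falls is uncertain. The 3 probe sets with the highest numbers did not fall. Probe set 2682150 read 9.70, 9.27, 9.35 and 9.44 without R1881 and 9.67, 9.64, 9.33 and 9.85 with it, and 2682151 read 9.07 ± 0.20 (SD, n = 4) and 9.20 ± 0.21. The arrays of the treatments overlapped in both. Probe set 2682149 was at 0.53 ± 0.24 (adjusted p = 0.31). The values used here do not place these probe sets on the exons of EIF4E3.

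**Figure D3:**
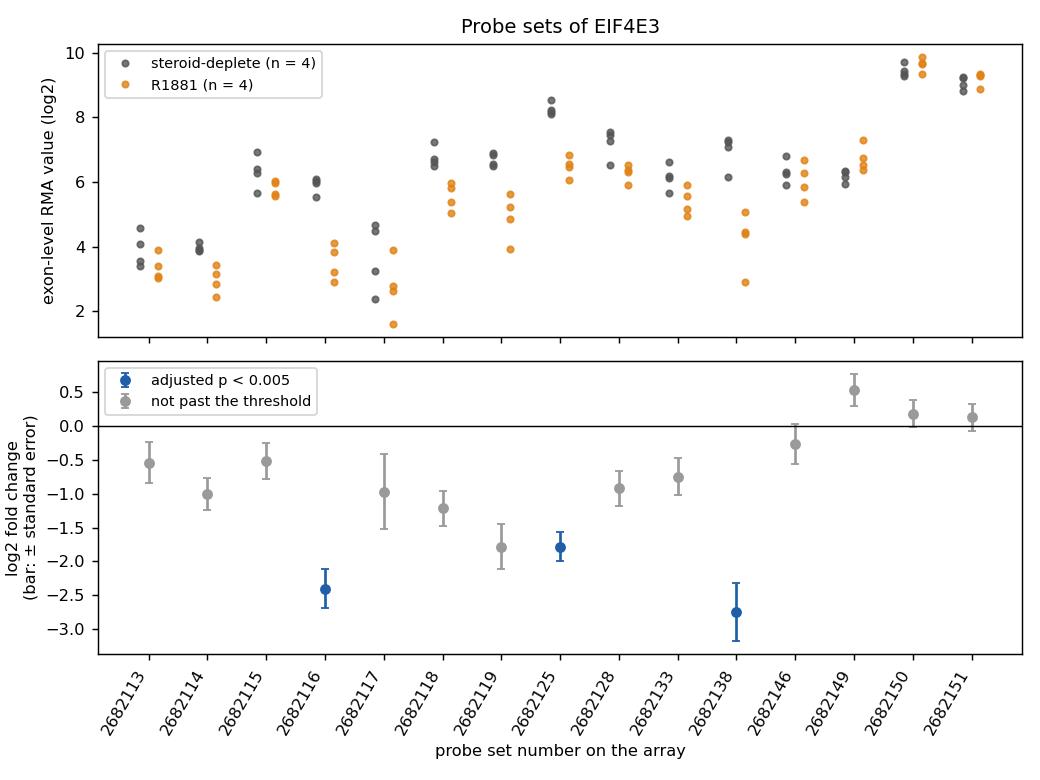
The 15 probe sets of EIF4E3 in the order of their numbers: exon-level RMA value (log2) in each array above, and log2 fold change ± 1 standard error below (4 arrays per treatment). The 3 probe sets in blue fell at an adjusted p under 0.005, and the 3 with the highest numbers did not fall.

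A change relative to the gene was tested as the log2 exon-level value minus the log2 gene-level value of the same array, both from Iter-PLIER, another way to summarise probes. Of 768 member probe sets tested, 5 were relatively higher and 1 relatively lower after R1881 at an unadjusted limma p of 0.001 or less, where 2.49% and 0.831% of the 140191 probe sets tested were. The same 3 probe sets of EIF4E3 gave the largest values, at 1.88 ± 0.12 (2682149, limma adjusted p = 2.3e-04), 1.57 ± 0.18 (2682150, adjusted p = 0.0021) and 1.55 ± 0.16 (2682151, adjusted p = 0.0012), beside a gene-level difference of −1.43 for EIF4E3 in Iter-PLIER values. After R1881, 2682150 and 2682151 stood 2.36 and 2.50 above the gene on the log2 scale, more than 5-fold. They met the 5-fold limit of the test only in steroid-deplete medium (0.78 and 0.95). In EEF1AKMT1, a methyltransferase of eEF1A, probe sets 3504419 (1.00 ± 0.20, adjusted p = 0.023) and 3504418 (0.79 ± 0.13, adjusted p = 0.0099) were relatively higher. Their differences in exon-level RMA values were 0.34 and 0.15 (limma adjusted p = 0.45 and 0.79), with overlapping treatments. The gene-level RMA difference of EEF1AKMT1 was −0.31 (adjusted p = 0.014). In EIF2B4, probe set 2545768 was relatively lower (−0.86 ± 0.14, adjusted p = 0.010). In exon-level RMA values it read 8.87, 8.82, 8.89 and 8.94 without and 8.69, 8.74, 8.65 and 8.94 with R1881, with overlapping treatments, while the gene-level value of EIF2B4 rose.

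Genes that act around the members were taken as lists, which were chosen with earlier results known. Beside the counts that follow, 12.2% of all clusters fell and 6.44% rose as deposited, and 9.23% and 9.40% with centred arrays. Among clusters at or above the median level 21.1% fell and 12.9% rose. Whether any list differed from these shares was not tested. In the eIF2 kinase and phosphatase list 3 of the 12 measured genes rose and 1 fell. DNAJC3, an inhibitor of eIF2 kinases, rose by 1.49 ± 0.12 (adjusted p = 3.8e-07), PPP1CB, a catalytic subunit of protein phosphatase 1, by 1.37 ± 0.12 (adjusted p = 7.6e-07) and EIF2AK3, the kinase PERK of the endoplasmic reticulum, by 0.61 ± 0.10. The gene that fell was PPP1CC, another catalytic subunit of the same phosphatase (−0.59 ± 0.09, adjusted p = 2.8e-04). The median of the list was 0.07. Of the 29 measured genes of the amino acid response and ATF4 list, 10 fell and 3 rose, with a median of −0.21 (−0.10 after centring, where 7 fell and 3 rose). PHGDH, which starts serine synthesis, fell from 10.99 ± 0.10 (SD) to 9.62 ± 0.13 (−1.37 ± 0.09, adjusted p = 6.5e-08), SLC7A11, a cystine transporter, fell by 1.06 ± 0.11 and STC2 by 0.90 ± 0.12. Those that rose were ATF3 and the amino acid transporters SLC38A2 (0.90 ± 0.09) and SLC1A5 (0.86 ± 0.09).

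Of 12 mitochondrial synthetases, which charge tRNA inside the mitochondrion, 2 fell (NARS2 by 0.56 ± 0.10 and LARS2 by 0.47 ± 0.09) and 0 rose, although 3 rose when the arrays were centred. Among 6 further genes listed beside the synthetases, TARS3, a paralog of TARS1 that the naming rule does not reach, fell by 0.97 ± 0.11 (adjusted p = 1.2e-05) while TARS1 did not. XPO5, an exporter of small RNA from the nucleus, fell by 0.47 ± 0.08. Of 13 other cofactors, 2 rose and 2 fell. LARP1, which binds mRNAs with a pyrimidine start, fell by 0.71 ± 0.08 (adjusted p = 2.1e-05), and RPS6KB2, an S6 kinase, rose by 0.66 ± 0.09, as did GSPT1, the partner of ETF1 in termination, by 0.49 ± 0.09.

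Ribosome biogenesis genes were the list with the lowest median. Of 14 measured genes 6 fell and 0 rose, with a median of −0.36 (−0.26 after centring, where 5 fell and 1 rose). MYC fell from 10.16 ± 0.05 (SD) to 8.35 ± 0.13 (−1.82 ± 0.08, adjusted p = 2.0e-09), NOB1 by 0.82 ± 0.15 and WDR12 by 0.81 ± 0.11. MYC is a transcription factor that drives such genes, and it is counted in the 14 and in the 6. NOB1 was dim, at 4.55 ± 0.19 (SD) without and 3.73 ± 0.34 with R1881, so the size of its fall is uncertain. Of the 79 cytosolic ribosomal protein genes listed only 7 had a cluster of their own, and RPL27A rose by 0.67 ± 0.10 while RPL37A fell by 0.65 ± 0.12 and RPL28 by 0.61 ± 0.10.

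**Figure D4:**
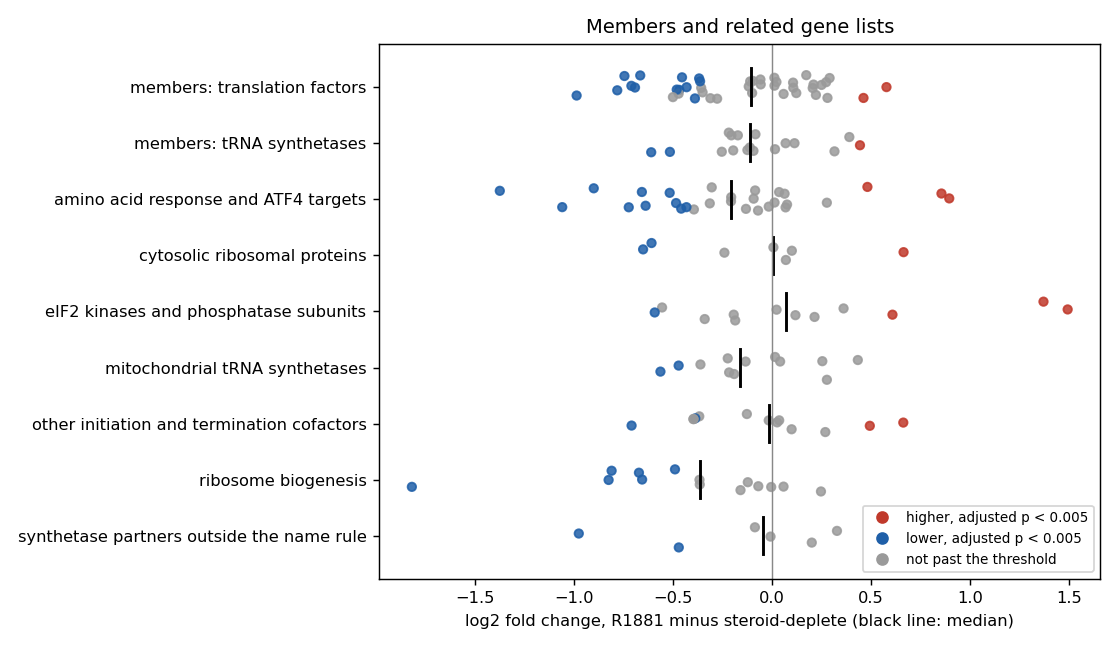
Log2 fold change (R1881 minus steroid-deplete, gene-level RMA) of each gene in the 2 kinds of member and in 7 related lists, with the median of each group as a black line. Red and blue points passed an adjusted p under 0.005, and the lowest median, −0.36, was that of the ribosome biogenesis list, which includes MYC.

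The named members kept their sign under every alternative, but much of this was fixed in advance. The 18 members past the threshold and EIF4G1, EIF2S1 and EIF4E2 were refitted under 15 alternatives each, 315 values in all, and 0 changed sign. The replicate block, the intensity trend and the methods' t-test leave the log2 fold change as it was. Leaving out arrays cannot turn the sign of the 18, whose treatments do not overlap. Only Iter-PLIER values, centring and the new quantile normalisation could have turned it. In Iter-PLIER values the log2 fold change was −1.43 for EIF4E3, −1.03 for EEFSEC, −1.02 for EIF5A2 and −0.92 for EIF4EBP1, all past the threshold and larger in size than in RMA values, the first 3 of them beyond 2-fold. EIF4EBP2, EIF3H, EIF3G, EIF2D, EIF3D, WARS1 and EEF2K did not pass the threshold in Iter-PLIER values.

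**Figure D5:**
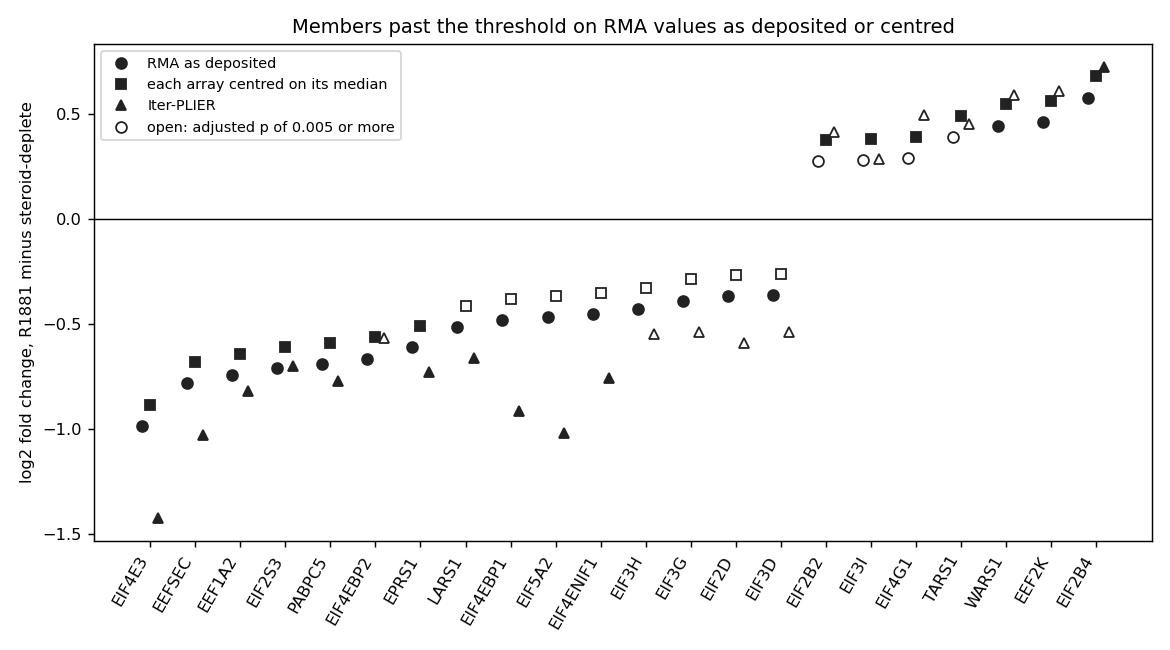
Log2 fold change (R1881 minus steroid-deplete) of the 22 members that passed the threshold in RMA values as deposited or with each array centred on its median, with the Iter-PLIER value beside them. Filled symbols have an adjusted p under 0.005. All 3 values of a gene lie on the same side of 0.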

How the data were processed

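The 8 arrays of LNCaP cells (4 in steroid-deplete medium, 4 with R1881) were each deposited in 4 summaries, 32 sets of values in all. The authors made the gene-level and exon-level RMA values, deposited on the log2 scale, by quantile normalisation with antigenomic background probes, and their gene table holds 16309 clusters. The authors also deposited linear intensity values from Iter-PLIER. At exon level the labels say Iter-PLIER where the methods say PLIER. The submitters' processing notes name RMA, PLIER and the build hg18, without versions.

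Symbols came from the array annotation, and 20 older symbols were updated through RefSeq. A treatment difference was fitted with limma 3.58.1 (R 4.3.3), with Benjamini-Hochberg adjusted p-values over every cluster or probe set tested, on 8 arrays. Iter-PLIER values were taken as log2 after a pseudocount of 16. Probe sets tested relative to their gene were at or above the median level, within 5-fold of the gene, and of genes changed under 10-fold. The fits were tested on simulated data. The number of arrays limits the precision.

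The members, lists and motifs were chosen with earlier results of these data known. Named genes are the 4 largest changes past the threshold in each role, any change of 2-fold, and fixed paralogs. From each list the 3 largest changes past the threshold were taken. Other genes were named after their values were seen. A listed gene with several clusters is given by the brightest. Alternatives were Iter-PLIER values, a replicate block, centring, a new quantile normalisation, an intensity trend, a filter on dim clusters, the methods' t-test, other limits, and leaving out arrays.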

Additional observations from a re-analysis of the deposited data

Results flagged for a closer look

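In 118 groups of 4 arrays (59 members in each treatment), 3 held an array far from the other 3, where chance gives about 1 in 20. EEF1AKMT2, a methyltransferase of eEF1A, read 6.041 in R1881 replicate 4 and 7.047 to 7.181 in the other R1881 arrays. QARS1, the glutamine synthetase for tRNA, read 8.869 in R1881 replicate 2 and 8.783 to 8.788 in the others. EIF4EBP1 read 7.737 in R1881 replicate 3 and 7.885 to 7.916 in the others, all of them below its 4 steroid-deplete arrays. The cause was not tested.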

How the results depend on the processing

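Beside 3 members higher and 15 lower (synthetases 1 and 2, factors 2 and 13), other choices gave these counts at an adjusted p under 0.005. Iter-PLIER values gave 1 higher and 10 lower (0 synthetases and 1 factor higher, 8 factors lower). Centred arrays gave 7 and 7 (2 synthetases and 5 factors higher, 6 factors lower). A new quantile normalisation gave 3 (5.08%) and 13 (22%), against 8% and 11.5% of all clusters. Clusters at or above the median level, 53 of the 59 members among them, gave 4 and 14, with 2 synthetases higher. An intensity trend with robust variances gave 5 (8.47%) and 14 (23.7%), against 6.62% and 12.3% of all clusters, with 2 synthetases and 3 factors higher. The methods' t-test gave 1 and 1 after Benjamini-Hochberg adjustment (0 synthetases and 1 factor higher, 1 factor lower) and 3 and 5 with Storey's q-values (4 factors lower). Under the 2 adjustments 1.69% and 8.47% of the members fell, against 5.32% and 7.79% of all clusters. An adjusted p under 0.05 gave 7 and 20 (2 synthetases and 5 factors higher), and a limit of 2-fold gave 0 and 0, with 0 in either kind. Leaving out 1 array at a time gave 1 to 4 members higher and 8 to 14 lower, with 0 to 2 synthetases higher, 1 to 2 factors higher and 7 to 13 factors lower. The lowest counts came without steroid-deplete replicate 3 (1 higher) and without steroid-deplete replicate 4 or R1881 replicate 1 (8 lower each). Without steroid-deplete replicates 2 or 3 there were 9 lower each, and without steroid-deplete replicate 1 and R1881 replicate 4 together 7 (6 of them factors). The cause was not tested.

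With the replicate number as a block 3 members were higher (5.08%) and 12 lower (20.3%), against 6.21% and 11.7% of all clusters. At exon level 1 in place of 3 member probe sets passed with this block. The numbers share no origin in the labels. Once the treatment mean of each cluster was subtracted, the remainders of same-numbered arrays correlated at −0.101 to 0.0954. By these remainders 1 of the 8 arrays correlated best with its own number. Without this subtraction, arrays of the same treatment correlated at up to 0.995. The 6 probe sets that differed relative to their gene became 8 with RMA values, 5 with the block, and 5 to 9 with 1 array left out. Of 315 refits of named genes, 216 kept direction and side of the threshold, 98 lost the threshold, 1 gained it (EIF4G1, centred) and 0 changed sign. In many of these refits the sign could not change, as described above. EIF2S3 passed in all 15 alternatives, while EIF2D passed in 2, EIF3D, EIF3G and EIF4ENIF1 in 3 and EIF5A2 in 4. The number of arrays limits the precision of every value, and EIF5A2 and PABPC5 had the lowest levels of the 18 members past the threshold.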
